A study of Mus musculus with 3 samples.

Results

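The gamma-delta T cell receptor constant genes Trdc, Tcrg-C1, Tcrg-C2 and Tcrg-C4, the delta variable segment Trdv4, and Sox13, Maf and Cd163l1 were followed in single thymus cells of mice with altered p53. These 8 genes were taken by symbol from the 32285 genes of the deposited matrices. They were counted in cells with at least 500 detected genes and under 10% mitochondrial counts. The libraries came from p53 AD/-, p53-/- and p53+/- mice, all females of 4 weeks with germline p53 alleles, 1 library for each genotype. The labelled backgrounds were mixed BALB/C and C57BL7 for p53 AD/-, C57BL8 for p53-/- and C57BL6 for p53+/-. These C57BL numbers rise in the order of the samples, and whether they name different strains is not known. AD is the allele name in the labels, carried over a null allele, in a study of p53 dimers. All 3 groups lack at least 1 intact copy of the gene, and the genotype label p53+/- was used where the series' design names wild-type mice. With 1 library per genotype, a difference between genotypes cannot be told apart from one between mice, backgrounds or libraries.

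A gamma-delta T cell carries a receptor made of a gamma and a delta chain in place of the alpha and beta chains of most T cells. Both lineages arise in the thymus from CD4-negative, CD8-negative (double-negative, DN) progenitors. Cells that take the alpha-beta path become CD4-positive, CD8-positive (double-positive, DP) cells, which divide, come to rest, rearrange the alpha locus and mature. Trdc encodes the delta constant region and lies inside the alpha locus, so joining an alpha variable to an alpha joining segment deletes it from that chromosome. The gamma constant genes each serve their own group of variable segments on another chromosome, and that locus is also rearranged in many alpha-beta cells. Sox13 encodes a transcription factor of the SOX family and Maf a basic leucine zipper factor, and both act in gamma-delta cells committed to IL-17. Cd163l1 encodes a scavenger receptor, also called SCART1, found on IL-17-producing gamma-delta cells.

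In the GENCODE M21 annotation of GRCm38, Trdc lay at chr14:54142851-54148868 and Trdv4 at chr14:54074905-54075515, both on the plus strand. Tcrg-C1 (chr13:19214103-19217024, plus), Tcrg-C2 (chr13:19304649-19307551, minus) and Tcrg-C4 (chr13:19344558-19352756, plus) lay in the gamma locus. Sox13 was at chr1:133382303-133424377 on the minus strand, Maf at chr8:115682942-115707794 on the minus strand and Cd163l1 at chr7:140218267-140231145 on the plus strand. The gamma constant transcripts resemble each other closely, which limits how their counts can be told apart. The first 90 bases of each annotated transcript are shown 5′ to 3′ for that reason, with capitals where a base differs from Tcrg-C1.
Tcrg-C1: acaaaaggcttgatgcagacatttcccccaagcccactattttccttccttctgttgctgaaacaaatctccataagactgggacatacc
Tcrg-C2: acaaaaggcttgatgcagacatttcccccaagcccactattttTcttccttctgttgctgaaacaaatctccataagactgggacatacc
Tcrg-C3: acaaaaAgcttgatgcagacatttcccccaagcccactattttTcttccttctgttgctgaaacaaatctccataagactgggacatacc
Tcrg-C4: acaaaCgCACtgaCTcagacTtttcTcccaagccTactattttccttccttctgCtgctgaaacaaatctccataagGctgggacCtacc
In these windows Tcrg-C2 differed from Tcrg-C1 at 1 base, Tcrg-C3 at 2 and Tcrg-C4 at 12. Over the whole transcripts Tcrg-C1 and Tcrg-C2 were identical at 96.1% of 909 aligned bases, and Tcrg-C1 and Tcrg-C4 at 71.3% of 901. Of the 835 windows of 90 bases in Tcrg-C1, 15 occurred unchanged in Tcrg-C2, 38 in Tcrg-C3 and none in Tcrg-C4. Most windows thus held a base that tells these genes apart. Where reads fell and how shared reads were counted are not stated. How far the split of counts among Tcrg-C1, Tcrg-C2 and Tcrg-C3 is uncertain is therefore not known, while Tcrg-C4 stands apart in sequence.

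The filters kept 6171, 9543 and 8150 cells of the p53 AD/-, p53-/- and p53+/- libraries, with medians of 2484, 3062 and 3238.5 unique molecular identifiers (UMIs, 1 for each captured RNA molecule) per cell. Between 15 and 29 cell barcodes were shared by each pair of libraries. Trp53 itself stood at 90.9, 74.9 and 86.1 CPM (UMIs of a gene per 1000000 UMIs) in p53 AD/-, p53-/- and p53+/- cells, so Trp53 RNA was present in the library labelled p53-/- as well; the deleted part of the gene is not stated, so this does not check the labels. Each cell was put in a gate from raw UMIs of marker genes that exclude the 8 genes. The DN gate (no Cd4, Cd8a, Cd8b1 or Foxp3, with Il2ra or Kit) held 29, 96 and 58 cells of p53 AD/-, p53-/- and p53+/-. The DP cycling gate held 758, 1811 and 1144 cells and the DP quiescent gate 3806, 5262 and 5099. The mature gate (at least 2 UMIs of maturity markers that include Ccr7, S1pr1 and Klf2, no Rag gene) held 428, 741 and 548 cells. The innate-like gate (Zbtb16, which encodes PLZF, with another innate marker, or at least 3 innate markers) held 43, 127 and 72 cells. The other cells fell in 3 further gates, which entered the fit and the sums over several gates, and of which the one defined by non-T markers also held 8, 34 and 29 cells with delta and gamma constant UMIs. Cells of the DN and innate-like gates were deeper than average, with medians of 9194 to 12953.5 UMIs, against 2056.5 to 2812 in DP quiescent cells.

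Trdc had the most UMIs of the 8 genes, 3975, 7410 and 5473 UMIs in the p53 AD/-, p53-/- and p53+/- libraries. In DN cells it stood at 485, 314 and 201 CPM in p53 AD/-, p53-/- and p53+/-, and in DP cycling cells at 285, 228 and 219 CPM. DP quiescent cells had 33.7, 35.0 and 36.0 CPM. The DN and DP cycling ranges overlapped, and both lay above every other gate. Mature cells stood between, at 90.5, 81.4 and 99.8 CPM, and overlapped innate-like cells at 96.2, 79.3 and 42.3 CPM. Trdc was detected in 63.9%, 59.5% and 57.2% of DP cycling cells of p53 AD/-, p53-/- and p53+/-, at medians of 9766 to 11341.5 UMIs. The shares in DP quiescent cells were 5.99%, 6.82% and 7.28%. After cells were thinned to 1500 UMIs and shallower ones left out, which kept 755, 1804 and 1138 DP cycling and 3262, 4911 and 4968 DP quiescent cells, 29.5%, 21.6% and 21.5% of DP cycling cells still had a Trdc UMI, against 4.45%, 4.42% and 3.74% of DP quiescent cells, so the gap remained at equal depth. DP cycling cells held 2738 of 3975, 4992 of 7410 and 3400 of 5473 Trdc UMIs.

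The gamma constant genes followed another order. Tcrg-C1 was highest in DN cells, at 540, 353 and 155 CPM in p53 AD/-, p53-/- and p53+/-. Innate-like cells came next at 92.5, 90.8 and 86.5 CPM, without overlap, and mature cells had 45.1, 24.2 and 35.0 CPM. The DP gates were lowest, with Tcrg-C1 at 6.46, 8.71 and 9.45 CPM in cycling cells and at 3.69, 1.98 and 2.46 CPM in quiescent cells. Tcrg-C2 had the same first places, with 296, 243 and 238 CPM in DN cells and 98.1, 118 and 71.7 CPM in innate-like cells. Tcrg-C4, the most divergent copy, stood at 128, 94.0 and 94.4 CPM in innate-like cells and at 190, 110 and 88.4 CPM in DN cells, and those ranges overlapped. DP cycling cells, rich in Trdc, held 10.2 to 10.6 CPM of Tcrg-C2 and 3.23 to 5.06 CPM of Tcrg-C4.

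**Figure D1:**
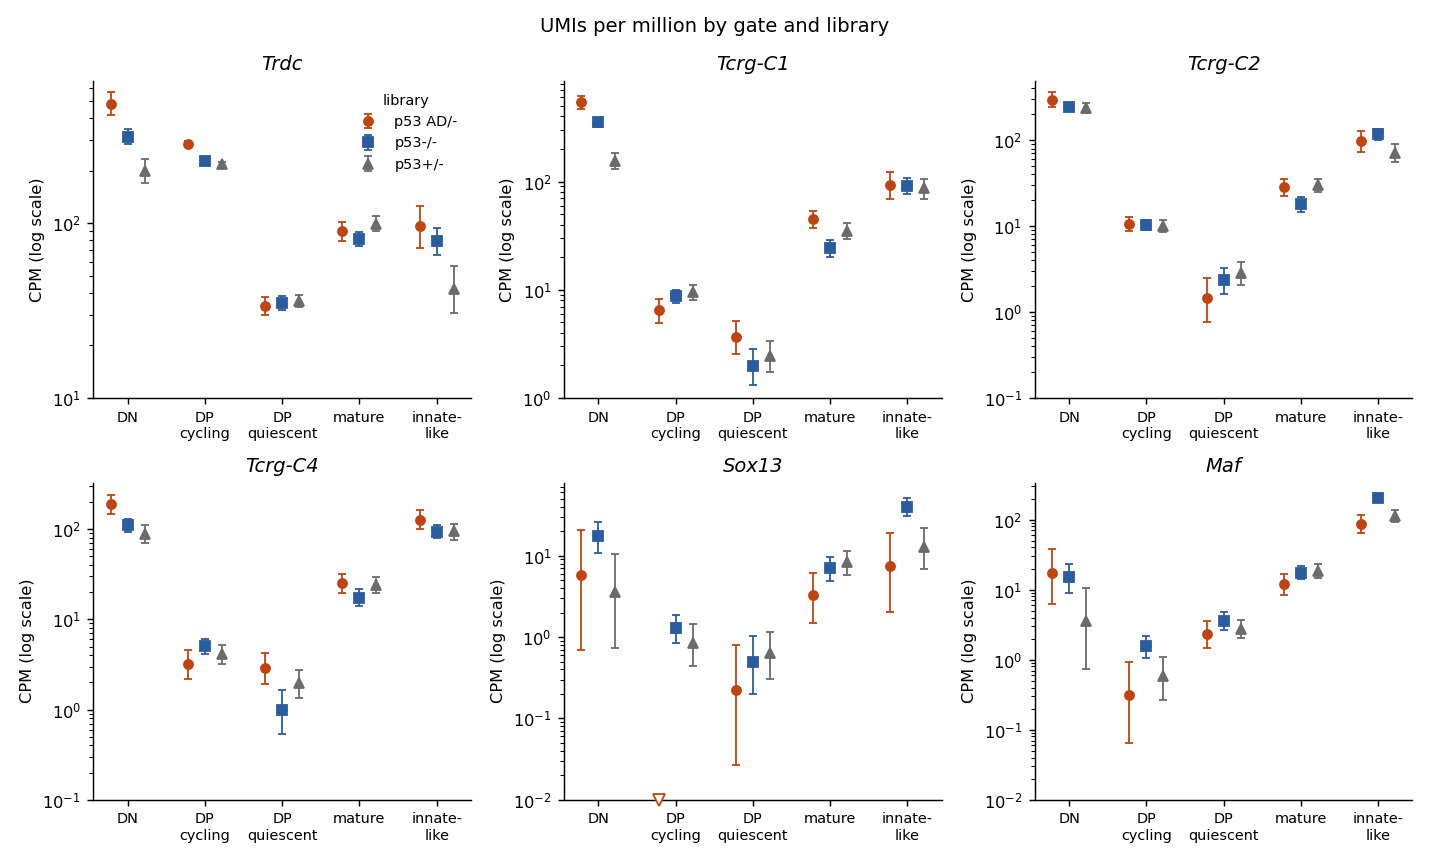
CPM (log axis) of Trdc, Tcrg-C1, Tcrg-C2, Tcrg-C4, Sox13 and Maf in the DN, DP cycling, DP quiescent, mature and innate-like gates, 1 point per library with an exact Poisson 95% interval for counting error. An open triangle on the axis marks 0 UMIs; Trdc stays between 219 and 285 CPM in DP cycling cells while the gamma constant genes lie at 10.6 CPM or lower there.

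Gates were compared within mice by edgeR's quasi-likelihood test on UMIs summed per gate and library, with the library as a block and Benjamini-Hochberg adjustment over all genes tested, on a log2 scale. 7 of the 8 genes passed the filter on low counts, and Trdv4, at 5, 16 and 1 UMIs in all, did not. All gates of a library come from 1 mouse, and the block takes out the level of each library. These p-values thus measure how unevenly gate differences ran over 3 mice of 3 genotypes, with that spread pooled over all gates in the fit. All 7 were higher in DN than in DP quiescent cells, against 21.8% of the 11967 genes tested called higher and 34% called lower. Tcrg-C1 was higher by 6.99 (SE 0.33, adjusted p = 1.2e-15), Tcrg-C2 by 6.77 (SE 0.33) and Tcrg-C4 by 6.02 (SE 0.32). Trdc was higher by 3.17 (SE 0.24, adjusted p = 9.1e-12), Sox13 by 4.20 (SE 0.63, adjusted p = 2.0e-06) and Maf by 1.85 (SE 0.56, adjusted p = 0.0067). Cd163l1 was higher by 3.58 (SE 1.38, adjusted p = 0.030) on only 1, 3 and 0 DN UMIs. The median over the genes tested was −0.30. With median-of-ratios factors 3180 genes were called higher and 3095 lower, in place of 2610 and 4066, and all 7 genes kept their direction. Maf lost its call without the p53-/- library, at 1.88 (adjusted p = 0.063), and went to −0.20 when gates were set on cells thinned to 1500 UMIs. Cd163l1 lost its call without the p53-/- library, at 2.55 (adjusted p = 0.47), and without the p53 AD/- library, at 3.46 (adjusted p = 0.067), and went to −2.78 with thinned gates.

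Early progenitor genes moved with them. Of 16 early thymocyte genes, 10 were higher and 4 lower in DN than in DP quiescent cells, with a median of 2.31 against −0.30 for all genes. Hes1, a Notch target, was higher by 5.90 (SE 0.24, adjusted p = 9.4e-17) and Bcl11a, a progenitor transcription factor, by 5.76 (SE 0.55). Of the 9 genes listed for the alpha-beta and pre-T receptors, 7 were lower and 1 higher, and the higher one was Ptcra, the pre-T alpha chain, by 1.84 (SE 0.21). Trac, the alpha constant gene, had 89.0, 58.1 and 109 CPM in DN cells of p53 AD/-, p53-/- and p53+/-, against 789, 755 and 567 CPM in DP quiescent cells. Of 21 further gamma-delta segments 6 could be tested, and Trgv2 (6.12, SE 0.38), Tcrg-V1 (6.06, SE 0.56) and Tcrg-V4 (4.91, SE 0.52), all gamma variable segments, were higher. Trdv2-2, a delta variable segment, was lower (−2.15, SE 0.63, adjusted p = 0.0050).

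Mature cells were set against the same DP quiescent cells, so both contrasts share them. All 7 genes were higher in mature cells, against a background of 23.6% called higher and 35.8% called lower. Cd163l1 was higher by 4.40 (SE 0.76), Sox13 by 3.80 (SE 0.49) and Tcrg-C1 by 3.79 (SE 0.37), and Maf was higher by 2.56 (SE 0.32). Trdc was higher by 1.48 (SE 0.22, adjusted p = 1.5e-06). Sox13 had 3.27, 6.98 and 8.34 CPM in mature cells of p53 AD/-, p53-/- and p53+/-, against 0.223, 0.495 and 0.631 CPM in DP quiescent cells. The mature libraries all lay above the DP quiescent ones. Of 21 tested IL-17 programme genes 10 were higher and 5 lower, with a median of 1.09 against −0.18 for all genes. Blk, a Src-family kinase of IL-17-producing gamma-delta cells, was higher by 5.08 (SE 0.67) and Il7r, the interleukin-7 receptor, by 3.14 (SE 0.14). With median-of-ratios factors 3457 genes were called higher and 3275 lower, in place of 2824 and 4284.

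Innate-like cells exceeded mature cells in the gamma constant genes and in both transcription factors. Against backgrounds of 7.36% higher and 7.49% lower, 5 of the 7 genes were higher and none lower. Maf led at 3.12 (SE 0.27, adjusted p = 2.8e-09), with 87.0, 200 and 113 CPM in innate-like cells of p53 AD/-, p53-/- and p53+/-, against 12.0, 17.4 and 18.3 CPM in mature cells. Tcrg-C4 was higher by 2.29 (SE 0.25, adjusted p = 2.2e-07), Tcrg-C2 by 2.04 (SE 0.31) and Tcrg-C1 by 1.51 (SE 0.32, adjusted p = 0.0016). Sox13 was higher by 1.74 (SE 0.42, adjusted p = 0.0051), with 7.40, 40.3 and 12.8 CPM in innate-like cells of p53 AD/-, p53-/- and p53+/-. The p53-/- library set much of that: without it the Sox13 change was 0.90 (adjusted p = 0.58), and the Tcrg-C1 change was 1.27 (adjusted p = 0.060). Sox13 also missed the threshold with gates set on thinned cells, at 1.46 (adjusted p = 0.44), and with no replicate block, at 1.84 (adjusted p = 0.065). Trdc did not pass the test, at −0.29 (SE 0.29, adjusted p = 0.58), and its direction turned with thinned gates (0.70) and without the p53+/- library (0.090). With median-of-ratios factors 1021 genes were higher and 684 lower, in place of 881 and 896.

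Of the 21 IL-17 programme genes, 10 were higher and 4 lower in innate-like than in mature cells, with a median of 1.64 against −0.05 for all genes. S100a4, a calcium-binding protein of effector cells, was higher by 6.22 (SE 0.47), and Ccr2, a chemokine receptor, by 5.39 (SE 0.52). Il17a, the cytokine itself, had 1, 112 and 16 UMIs in innate-like cells of p53 AD/-, p53-/- and p53+/-, against 0, 0 and 0 in mature cells. Its UMIs thus came mostly from the p53-/- library. Of 18 tested genes of the interferon-gamma and strong-signal programme, 8 were higher and 5 lower, with a median of 0.37, and Ly6c2, a surface protein of memory-like cells, was higher by 3.44 (SE 0.28). Trgv2 was higher by 2.64 (SE 0.32) and Tcrg-V1 by 1.78 (SE 0.45), while 6 of the 9 alpha-beta and pre-T genes were lower. Trac was among them, at 476, 378 and 395 CPM in innate-like cells, against 814, 696 and 588 CPM in mature cells, with no overlap.

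Innate-like cells had less Trdc, Tcrg-C1 and Tcrg-C2 and more Maf than DN cells. Trdc (−1.99, SE 0.29), Tcrg-C1 (−1.69, SE 0.29) and Tcrg-C2 (−1.21, SE 0.28, adjusted p = 0.0018) were lower in innate-like cells, and Maf was higher by 3.83 (SE 0.39, adjusted p = 2.0e-08). The backgrounds were 13% higher and 10.5% lower. Sox13 at 1.34 (SE 0.50, adjusted p = 0.051), Cd163l1 at 2.32 (SE 0.95, adjusted p = 0.077) and Tcrg-C4 at −0.06 (SE 0.25, adjusted p = 0.93) did not pass. With scaling by total UMIs 1220 genes were called higher and 1856 lower, in place of 1557 and 1251.

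Trdc in DP cells was examined in a pair of comparisons that were added after the data had been seen. DP cycling cells exceeded DP quiescent cells in Trdc by 2.93 (SE 0.20, adjusted p = 6.5e-13), in Tcrg-C2 by 2.28 (SE 0.36), in Tcrg-C1 by 1.85 (SE 0.38) and in Tcrg-C4 by 1.38 (SE 0.34, adjusted p = 8.7e-04). Maf was lower, at −1.56 (SE 0.41, adjusted p = 0.0016), and 24.5% of genes were called higher and 45.4% lower. Sox13, at 0 UMIs in the p53 AD/- library and at 28 and 13 in p53-/- and p53+/-, did not pass, nor did Cd163l1. With gates set on thinned cells Tcrg-C4 went to −0.51 and Tcrg-C2 to 0.39 (adjusted p = 0.55). Trac moved the other way, at −2.16 (SE 0.11, adjusted p = 1.5e-15). Of the 6 further receptor segments tested, 4 were higher, the gamma segments Trgv2 by 2.12 (SE 0.38) and Tcrg-V1 by 1.58 (SE 0.59) and a pair of delta segments. Trdv5 was higher by 2.64 (SE 0.37), with 54, 115 and 93 UMIs in DP cycling cells of p53 AD/-, p53-/- and p53+/- against 7, 16 and 16 in DP quiescent cells, and Trdv1 by 1.18 (SE 0.29). Trdv2-2, with 134, 211 and 176 UMIs in DP cycling cells against 86, 125 and 160 in DP quiescent cells, did not pass (0.41, SE 0.21, adjusted p = 0.083), nor did Tcrg-V4 (0.47, SE 0.52, adjusted p = 0.43). Of the 21 IL-17 programme genes none was higher and 12 were lower.

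DN and DP cycling cells did not differ in Trdc past the threshold, at 0.24 (SE 0.22, adjusted p = 0.43), and a fit of these gates alone gave 0.34 (adjusted p = 0.043). The gamma constant genes were higher in DN cells, Tcrg-C1 by 5.15 (SE 0.28), Tcrg-C4 by 4.64 (SE 0.28) and Tcrg-C2 by 4.49 (SE 0.27), as were Sox13 by 3.46 (SE 0.58) and Maf by 3.41 (SE 0.65). Without the p53-/- library Sox13 was at 2.99 (adjusted p = 0.080). The background was 13.4% higher and 18.8% lower, and with scaling by total UMIs 1935 genes were higher and 1603 lower, in place of 1605 and 2249. Trdv1 was lower in DN than in DP cycling cells, at −3.39, with 0, 3 and 0 UMIs in DN cells of p53 AD/-, p53-/- and p53+/- and 117, 260 and 162 in DP cycling cells. Trdv2-2 was lower as well, at −2.56 (SE 0.60, adjusted p = 0.0016).

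**Figure D2:**
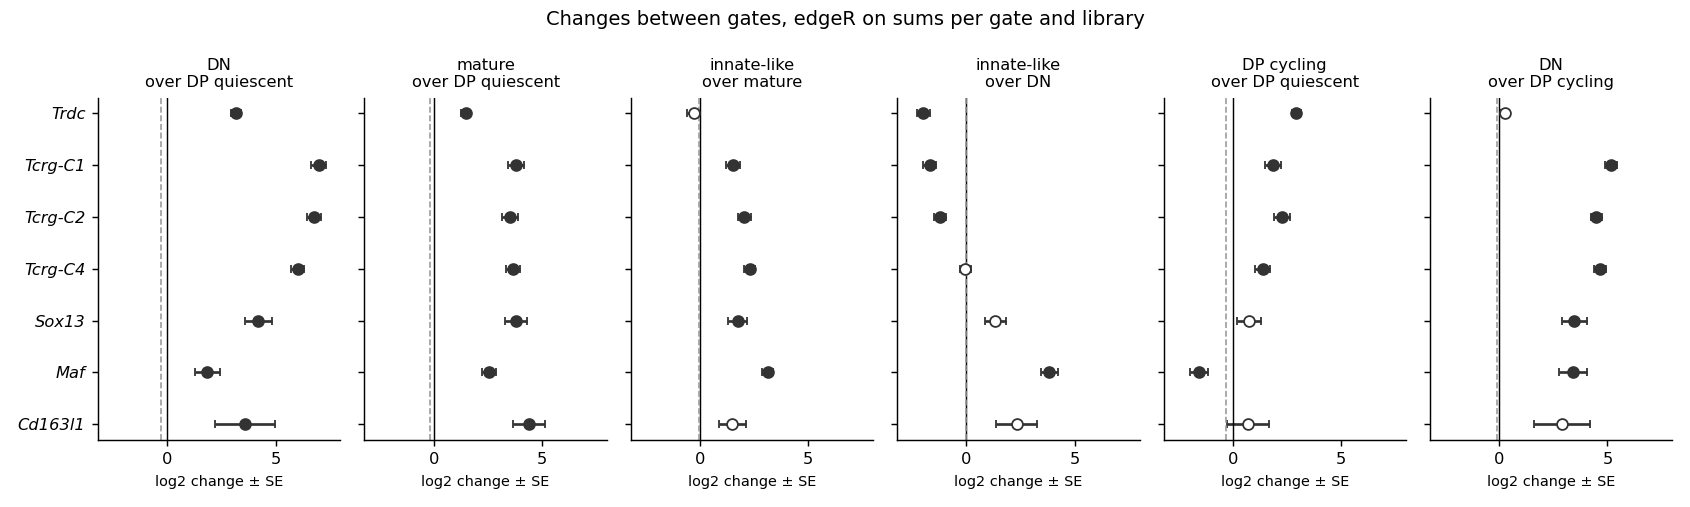
Log2 change with its SE (x axis) of the 7 genes that passed the filter, 1 panel for each of 6 gate comparisons, edgeR on UMIs summed per gate and library (3 libraries). Filled points had an adjusted p under 0.05, open points did not, and the dashed line is the median of all genes tested; Trdc is past the threshold in DP cycling over DP quiescent (2.93) and not in DN over DP cycling (0.24).

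Within the DP cycling gate, cells were split by their own Trdc count, a description made after the data had been seen and with no test. In p53 AD/-, p53-/- and p53+/- libraries 39.8%, 32.9% and 33.5% of these cells had 3 or more Trdc UMIs and 36.1%, 40.5% and 42.8% had none. Cells with 3 or more had 85.0, 82.8 and 65.4 CPM of Trac, against 275, 303 and 228 CPM in cells with none. Deeper cells more often showed Trdc: the medians were 13371.5, 15052 and 16404 UMIs in cells with 3 or more and 8074, 7196 and 8239 in cells with none. After thinning to 1500 UMIs, Trac was at 117 CPM (95% interval 82.9 to 159) in p53 AD/- cells with a Trdc UMI and at 229 CPM (197 to 265) in those without. The same levels were 149 (119 to 183) and 264 CPM (242 to 286) in p53-/-. In p53+/- they were 125 (91.6 to 167) and 173 CPM (152 to 197). The p53+/- intervals overlapped. In that library Rag1 and Cd4 were lower too in thinned cells with a Trdc UMI, at 498 CPM (428 to 576) and 155 CPM (117 to 201), against 694 CPM (650 to 740) and 216 CPM (192 to 243) in those without. In p53-/- Rag1 was at 545 CPM (487 to 609) with and 668 CPM (634 to 704) without. Cd4 there was at 176 CPM (144 to 214) with and 228 CPM (208 to 249) without. The Cd4 intervals overlapped in both libraries. In p53 AD/- the Rag1 levels were 410 CPM with and 407 CPM without, and the Cd4 levels 135 CPM (98.1 to 180) and 152 CPM (126 to 181).

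**Figure D3:**
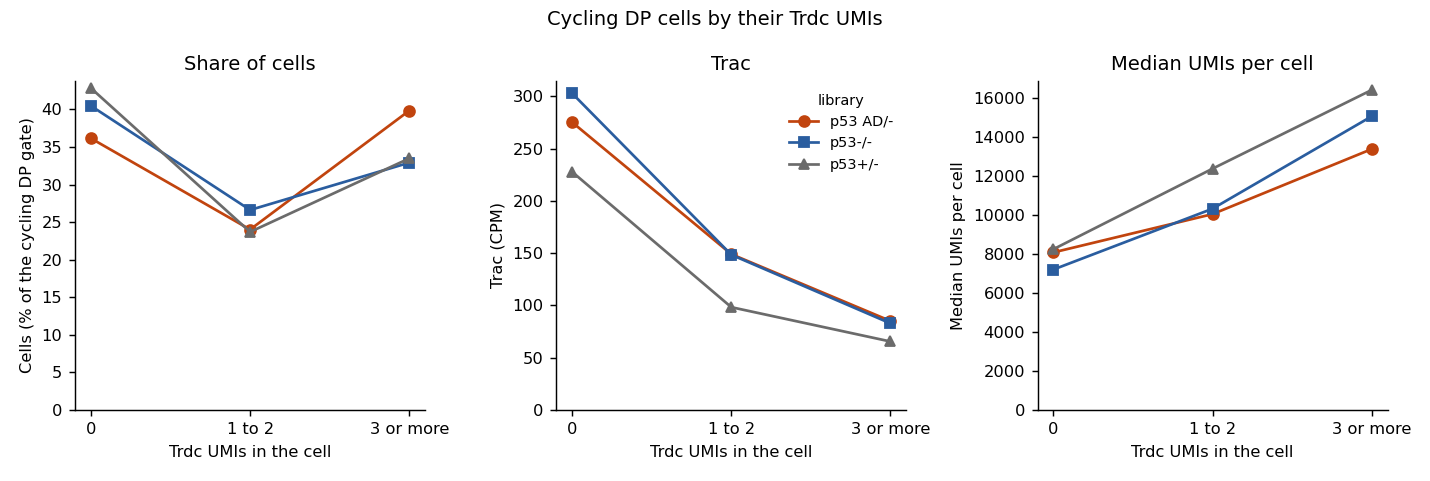
Cells of the DP cycling gate grouped by their Trdc UMIs (x axis: 0, 1 to 2, 3 or more), 1 line per library, with the share of the gate's cells and the Trac level among the panels. Trac falls across the bins in all 3 libraries, to 85.0, 82.8 and 65.4 CPM in p53 AD/-, p53-/- and p53+/- cells with 3 or more Trdc UMIs.

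Cells with constant-gene RNA of both chains were then counted, and are called cells with both chains below. The rule was at least 1 Trdc UMI and at least 3 UMIs summed over Tcrg-C1, Tcrg-C2 and Tcrg-C4. These UMIs count RNA and do not show that a receptor was made. This rule too was set after the data had been seen, and it fixes the levels of those genes. It found 63, 162 and 124 such cells in p53 AD/-, p53-/- and p53+/-, which were deep, with medians of 16236, 17788 and 18089.5 UMIs. They made up 17 of 29, 52 of 96 and 25 of 58 DN cells but 16 of 758, 37 of 1811 and 24 of 1144 DP cycling cells. In the DN gate they carried 162 of 169, 359 of 400 and 129 of 168 Trdc UMIs. Those in the DP cycling gate had medians of 25106, 30333 and 38578 UMIs, against 10251.5, 9766 and 11341.5 in the whole gate.

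In the mature gate 10, 20 and 21 cells of p53 AD/-, p53-/- and p53+/- held both chains, between 2.34% and 3.83% of the gate. These few cells carried 8 of 9, 36 of 36 and 25 of 35 Sox13 UMIs and 26 of 33, 39 of 90 and 46 of 77 Maf UMIs of mature cells. Sox13 stood at 45.7, 104 and 65.2 CPM in them, against 0.388, 0 and 2.62 CPM in the other mature cells. Innate-like cells differed, since 0 of 4, 12 of 63 and 5 of 13 Sox13 UMIs lay in cells with both chains. Over the DN, mature and innate-like gates and the cells with no coreceptor UMI that met no earlier gate, pooled, Trac was at 29.0, 34.8 and 24.5 CPM in cells with both chains, against 856, 669 and 602 CPM in other cells. DN cells were 17 of 37, 52 of 85 and 25 of 58 pooled cells with both chains. Of the other pooled cells they were 12 of 707, 44 of 1196 and 33 of 884. The part of this mix in the pooled levels was not tested. Trbc2, a beta constant gene, was detected in 100% of cells with both chains in each library. Other pooled cells were close to that, at 98.4%, 98.7% and 97.7% in p53 AD/-, p53-/- and p53+/-. Trbc2 stood at 2315, 1988 and 1882 CPM in cells with both chains, against 3453, 2707 and 2532 CPM in other cells. Gzma, a granzyme, was at 538, 571 and 583 CPM against 45.1, 73.5 and 74.2 CPM, and Dntt, which adds bases at segment joins, at 770, 637 and 588 CPM against 63.5, 106 and 77.8 CPM. Their lists as a whole went the other way. Most of the 19 interferon-gamma and strong-signal genes, which include Gzma, were lower in cells with both chains in all 3 libraries. Cd27 was among these, at 169, 152 and 125 CPM against 443, 324 and 322 CPM. Most of the 9 alpha-beta and pre-T genes, which include Dntt, were lower in all 3 as well. In the mature gate the share of Trdc UMIs in cells with both chains was 182 of 249, 190 of 420 and 264 of 419, so in p53-/- most lay outside them. A deeper cell passes the rule more easily.

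Cells with a Sox13 UMI held different receptor genes in different gates. In the mature gate, from which the gate rules remove cells with Zbtb16 and another innate marker, there were 26 (5, 7 and 14 in p53 AD/-, p53-/- and p53+/-), of which 21 had Trdc, 21 a gamma constant UMI, 9 Trac and 1 Zbtb16. Their Etv5, a transcription factor of IL-17-producing gamma-delta cells, stood at 247, 435 and 123 CPM, against at most 3.72 CPM in mature cells without Sox13. Of the 22 IL-17 programme genes found in the files, 6 were higher in these cells in all 3 libraries (Sox4, Rora, Blk, Etv5, S100a4 and 5830411N06Rik), 5 were lower in all 3 (Lef1, Ccr6, Il7r, Icos and Ltb) and 11 were mixed or at 0. Ccr6 was at 0 CPM in the 26 cells against 0.369, 0.979 and 1.23 CPM in other mature cells, too low to read a direction. Trac was at 49.5, 98.8 and 178 CPM in the Sox13-positive mature cells, against 825, 702 and 603 CPM in the others. In the DN gate 15 of 20 Sox13-positive cells had Trdc and 18 a gamma constant UMI. In the innate-like gate there were 49 (2, 38 and 9), of which 49 had a gamma constant UMI, 48 Maf, 46 Zbtb16 and 45 Trac, but 8 had Trdc. Of the 193 innate-like cells without Sox13, 80 had a gamma constant UMI, 58 Maf, 63 Zbtb16 and 168 Trac. Sox13-positive innate-like cells were deeper, with medians of 15943.5, 12231 and 17615 UMIs against 11310, 9361 and 12646, and the part of depth in these shares was not tested.

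**Figure D4:**
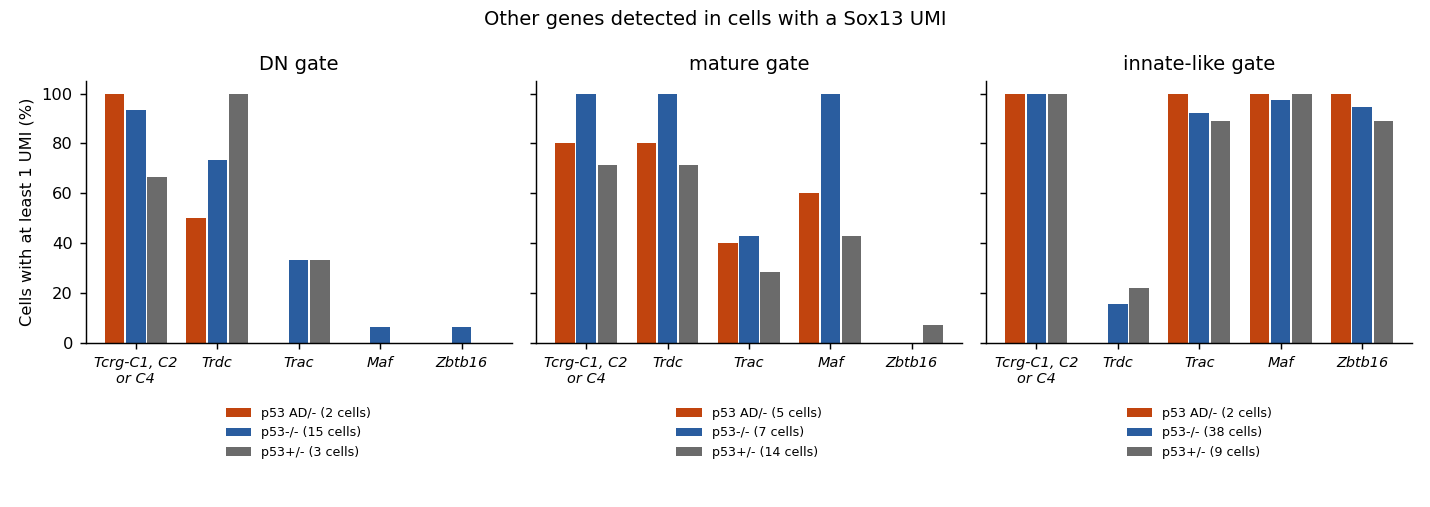
Percent of cells with a Sox13 UMI (y axis) that also had a UMI of Tcrg-C1, Tcrg-C2 or Tcrg-C4, of Trdc, Trac, Maf or Zbtb16, by gate, with bars for p53 AD/-, p53-/- and p53+/- and the number of cells in each legend. Trdc was found in 21 of 26 mature and in 8 of 49 innate-like Sox13-positive cells, and Trac in 9 of 26 and in 45 of 49.

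Zbtb16, which the innate-like gate itself uses, split that gate sharply for both factors. Sox13 was at 18.2, 60.3 and 25.0 CPM in p53 AD/-, p53-/- and p53+/- innate-like cells with a Zbtb16 UMI, against 0, 3.63 and 1.86 CPM in those without. Maf was at 201, 291 and 233 CPM with Zbtb16 and at 9.34, 32.6 and 5.59 CPM without. Cells with Zbtb16 were 15 of 43, 68 of 127 and 26 of 72, so the p53-/- gate held the largest share of them, 53.5% against 34.9% in p53 AD/- and 36.1% in p53+/-.

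Trdv4 lay mostly in 2 cells, and Cd163l1 was sparse. Of the 5, 16 and 1 Trdv4 UMIs in p53 AD/-, p53-/- and p53+/-, 11 lay in 1 innate-like cell of p53-/-, which also held 22 UMIs of Trdc, 10 of Tcrg-C1, 10 of Cd163l1, 9 of Maf and none of Trac. In p53 AD/- 4 of the 5 lay in 1 cell outside the 5 gates above, with 24 UMIs of Trdc, 11 of Cd163l1, 4 of Maf, 2 of Sox13 and 1 of Trac. Both cells thus carried delta, Maf and scavenger receptor RNA together. Cd163l1 had 32, 34 and 38 UMIs in 15, 19 and 22 cells in all, of which the highest cell of each library held 11, 10 and 13. In the mature gate its 14, 7 and 14 UMIs lay in 9, 4 and 2 cells, with 13 of the 14 of p53+/- in 1 cell.

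Between genotypes no test was possible, and ratios of CPM carry exact binomial 95% intervals for counting error only. A ratio was read for genes with at least 30 UMIs over the pair and called past 1.5-fold. Over all cells, where fewer cells of a type and less RNA per cell cannot be told apart, Sox13 had 30, 200 and 99 UMIs in p53 AD/-, p53-/- and p53+/-, or 1.09, 3.72 and 2.17 CPM. It was lower in p53 AD/- than in p53-/- (log2 ratio −1.77, 95% interval −2.37 to −1.21) and than in p53+/- (−0.99, −1.63 to −0.39), and higher in p53-/- than in p53+/- (0.77, 0.42 to 1.14). Maf, at 7.17, 13.1 and 7.42 CPM, was lower in p53 AD/- than in p53-/- (−0.87, −1.10 to −0.64) and higher in p53-/- than in p53+/- (0.82, 0.63 to 1.01). The 4 receptor constant genes stayed within 1.5-fold in each pair over all cells. For p53 AD/- over p53-/- 1 of 7 genes was higher (Cd163l1, 0.88, 0.14 to 1.62) and 2 were lower, against 8.59% and 19.6% of all genes read. In p53 AD/- over p53+/- none was higher and 1 lower, against 9.88% and 14%. In p53-/- over p53+/- 2 were higher and none lower, against 10.1% and 4.41%.

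**Figure D5:**
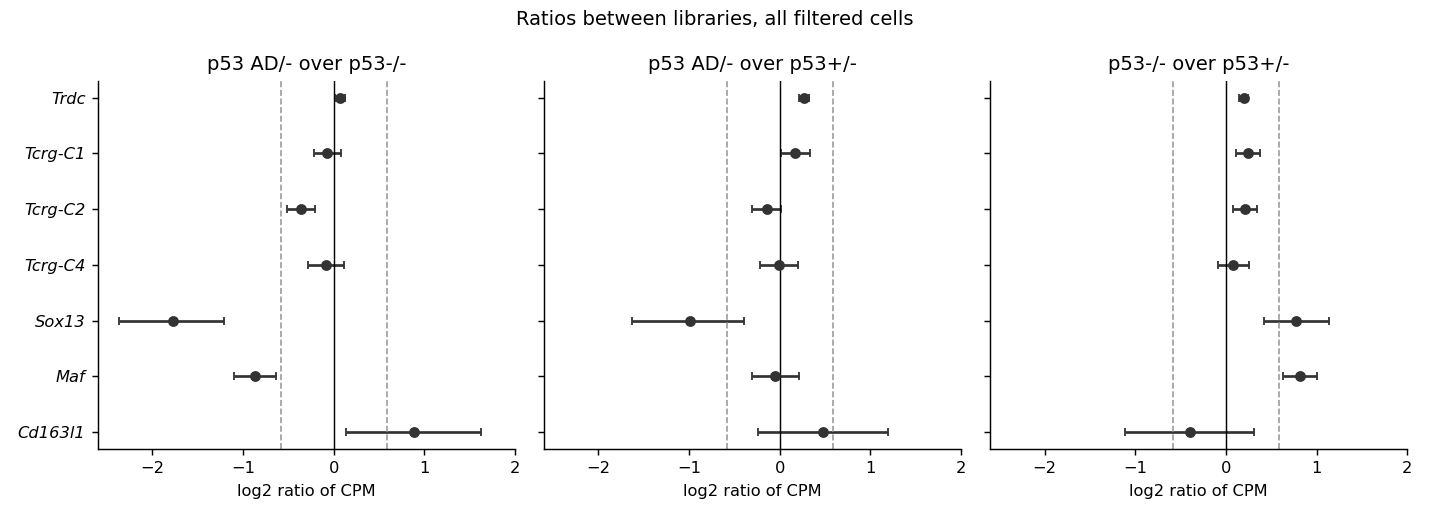
Log2 ratio of CPM (x axis) between libraries over all filtered cells for the 7 genes with at least 30 UMIs over the pair, with exact 95% intervals for counting error and dashed lines at 1.5-fold. Sox13 lies at −1.77 in p53 AD/- over p53-/-, at −0.99 in p53 AD/- over p53+/- and at 0.77 in p53-/- over p53+/-, while Trdc and the gamma constant genes lie inside the dashed lines.

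Sox13 and Maf also differed between libraries within the innate-like gate. There p53 AD/- was below p53-/- in Sox13 (−2.44, −4.36 to −1.02, on 4 and 63 UMIs) and in Maf (−1.20, −1.68 to −0.76), 2 of 6 genes read lower and none higher, against 26.6% and 9.02% of all genes read. In the same gate p53-/- was above p53+/- in Sox13 (1.66, 0.78 to 2.64), Maf (0.82, 0.51 to 1.15), Trdc (0.91, 0.40 to 1.44) and Tcrg-C2 (0.71, 0.32 to 1.13), 4 of 6 higher and none lower, against 12.7% and 5.57%. The Trdc ratio was −0.10 in cells under 5% mitochondrial UMIs. The share of Zbtb16-positive cells in the gate moved the same way, with intervals that overlapped, and its part in these ratios was not tested. Only Trdc of 5 genes read was past 1.5-fold in p53 AD/- over p53+/- innate-like cells (1.19, 0.58 to 1.80), against 10.7% called higher and 19.5% lower.

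DN cells showed another order. Tcrg-C1 was higher in p53 AD/- than in p53+/- (1.80, 1.47 to 2.13), as were Trdc (1.27, 0.96 to 1.59) and Tcrg-C4 (1.10, 0.60 to 1.60), 3 of 4 genes read higher and none lower, against 12.7% and 23.9%. The same 3 were higher in p53 AD/- than in p53-/- (Tcrg-C4 0.79, Trdc 0.63, Tcrg-C1 0.61) and none lower, against 10.5% and 26.8%. In p53-/- over p53+/- Tcrg-C1 (1.19) and Trdc (0.65) were higher and none lower, against 9.58% and 6.16%. Both p53 AD/- ratios share the same 29 cells, of which 10 held 151 of the 169 Trdc UMIs. The share of cells with both chains was 58.6%, 54.2% and 43.1% in p53 AD/-, p53-/- and p53+/- DN cells, with exact intervals of 38.9% to 76.5%, 43.7% to 64.4% and 30.2% to 56.8%. Those intervals overlapped.

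In mature cells Sox13 CPM was lower in p53 AD/- than in p53-/- (−1.09, −2.33 to −0.01, on 9 and 36 UMIs) and than in p53+/- (−1.35, −2.59 to −0.26). A few cells set these levels: 26 of the 36 UMIs of p53-/- lay in 4 cells, and 21 of the 35 of p53+/- in 4 cells. The intervals count UMIs as separate and leave out this clumping. Sox13 was detected in 1.17%, 0.945% and 2.55% of mature cells of p53 AD/-, p53-/- and p53+/-, so the share was not lower in p53 AD/- than in p53-/-. Tcrg-C1 was higher in p53 AD/- than in p53-/- (0.90, 0.53 to 1.27). In p53 AD/- over p53-/- 2 of 6 genes were higher and 1 lower, against 5.12% and 21.7%. None of 6 was higher in p53 AD/- over p53+/- and 2 were lower, Sox13 and Maf (−0.61, −1.25 to −0.01), against 6.5% and 16.3%. In p53-/- over p53+/- none was higher and Tcrg-C2 was lower (−0.72, −1.13 to −0.33), against 6.1% and 2.88%.

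DP cycling cells, added after the data had been seen, had Trdc within 1.5-fold in all 3 pairs, at 0.32 for p53 AD/- over p53-/-, 0.38 for p53 AD/- over p53+/- and 0.06 for p53-/- over p53+/-. The few other reads past 1.5-fold there were of sparse genes. For p53 AD/- over p53-/- 2 of 5 genes were lower, Tcrg-C4 (−0.65, −1.27 to −0.06) and Maf (−2.31, −4.66 to −0.64, on 3 and 34 UMIs), and none higher, against 26.5% and 3.58%. None of 4 was past 1.5-fold in p53 AD/- over p53+/-, against 4.1% higher and 18.8% lower. In p53-/- over p53+/- 2 of 6 were higher, Maf (1.42, 0.33 to 2.67) and Sox13 (0.61, −0.39 to 1.68), and none lower, against 5.25% and 2.13%, and the Sox13 interval reached below 0.

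In DP quiescent cells Trdc was nearly level, with log2 ratios of −0.05 for p53 AD/- over p53-/-, −0.09 for p53 AD/- over p53+/- and −0.04 for p53-/- over p53+/-. The gamma constant genes were sparse there, with 13 to 45 UMIs of each per library. For p53 AD/- over p53-/- 2 of 5 genes were higher (Tcrg-C4 1.55, Tcrg-C1 0.90) and 2 lower (Tcrg-C2 −0.68, Maf −0.62, both with intervals that reached above 0), against 5.98% and 20%. In p53 AD/- over p53+/- none was higher and Tcrg-C2 was lower (−0.97, −1.98 to −0.05), against 5.9% and 13.9%. In p53-/- over p53+/- none was higher and Tcrg-C4 was lower (−0.98, −2.01 to −0.03), against 6.06% and 3.19%.

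Across the 24 sums of 8 gates and 3 libraries, the levels of Tcrg-C1, Tcrg-C2 and Tcrg-C4 ran together (Pearson's r of log2(CPM + 1) from 0.94 to 0.96), and Sox13 ran with Maf (0.86) and Tcrg-C4 (0.81). Trdc ran little with Sox13 (0.10), and with Tcrg-C1 (0.52) less closely than the gamma constant genes ran with each other. These points share libraries, gates and depth, and the values are descriptions. The 5 genes most like Trdc of 10574 ranked were Fam92a (0.93), Prim2, a DNA primase subunit (0.92), Nmral1, Slirp and Mrpl42, a mitochondrial ribosomal protein (0.91 each). Those most like Sox13 were Dtd1 and Ubash3b (0.88 each), Nucb1 (0.86), and Sema4a and Tnfrsf1b, the second tumour necrosis factor receptor (0.85 each).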

How the data were processed

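Single-cell RNA libraries of thymus from 3 mice, 1 per genotype, were analysed. The deposited values were raw counts of UMIs per gene and barcode, made by the authors with Cell Ranger 4.0.0 on GRCm38 per the submitters' processing notes. Annotation, chemistry and strand handling are not given in these sources. The members and gene lists were chosen with earlier results of these data known. The genes named are the 8 members, called members of the lists (at most 6 a list and comparison) and the 5 genes most like Trdc and like Sox13 among those with at least 300 UMIs; Il17a, Trac, Gzma, Dntt and Etv5 are named from the lists for their levels after these were seen. Dropped were 111, 246 and 443 barcodes of p53 AD/-, p53-/- and p53+/- under 500 genes and, of the rest, 26, 100 and 287 that reached 10% mitochondrial UMIs. The kept cells held 27494727, 53812231 and 45557301 UMIs. Scrublet (scanpy 1.11.5) called 4, 0 and 1 barcodes, so it had not worked and doublets remain.

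Gates were set in order on raw UMIs: at least 5 UMIs of non-T markers; DN; innate-like; mature, with at least 2 UMIs of its markers (1 of them is not reported here); DP, cycling with at least 3 cycle markers detected; and the rest. The 56 gate genes were left out of counts over genes. UMIs were summed into 24 sums and fitted in edgeR 4.0.16 (R 4.3.3) with gate and library as terms, TMM factors and filterByExpr, on 14 residual degrees of freedom and a threshold of 0.05. Each fit was tested on simulated counts. The libraries serve as blocks because all gates of a library come from the same mouse. Alternatives were median-of-ratios and total-UMI scaling, DESeq2 1.42.0, no filter, only the gates compared, no replicate block, stricter cell filters, doublet scores, gates on thinned cells, a looser DN gate and leaving out each library; for ratios, other scalings, filters and minimum UMIs. CPM has exact Poisson and shares exact Clopper-Pearson 95% intervals, for counting error only. Python 3.11.15, numpy 2.4.6, pandas 2.3.3, scipy 1.17.1 and Biopython 1.88 were used. Transcripts and positions came from GENCODE M21.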

Additional observations from a re-analysis of the deposited data

How the results depend on the processing

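Over the 6 gate comparisons and 7 genes, 436 alternative values kept direction and side of the threshold, 5 lost the call, 8 gained one and 7 changed sign. Leaving out 1 library gave 126 further values, of which 117 kept both, 6 lost the call, 1 gained one and 2 changed sign. With gates set on cells thinned to 1500 UMIs the log2 change went to −0.20 for Maf and −2.78 for Cd163l1 in DN over DP quiescent, 0.70 for Trdc in innate-like over mature, −0.51 for Tcrg-C4 and −0.69 for Sox13 in DP cycling over DP quiescent, and −3.12 for Cd163l1 in DN over DP cycling. Tcrg-C4 in innate-like over DN was 0.18 with a DN gate that allows 1 coreceptor UMI and, with 1 library left out, −0.21 to 0.026 (without the p53 AD/- library), and Trdc in innate-like over mature was −0.50 to 0.090 (without the p53+/- library). The Trdc ratio of p53-/- over p53+/- in innate-like cells was −0.10 under 5% mitochondrial UMIs. The cause was not tested. Sox13 in innate-like over DN gained a call with no filter (adjusted p = 0.012) and without the p53 AD/- library (0.031).

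With no replicate block, genes called lower in mature over DP quiescent were 2646, in innate-like over DN 777 and in DN over DP cycling 1350, and innate-like over mature had 469 higher and 305 lower; Sox13 in innate-like over mature was then 1.84 (adjusted p = 0.065). Thinned gates gave 346 higher and 529 lower in innate-like over mature and 805 higher in innate-like over DN, and a fit of only those gates gave 1020 higher and 824 lower in the second. Leaving out 1 library gave, higher and lower, 2464 to 2927 and 1806 to 3309 genes in DN over DP quiescent, 2691 to 3312 and 1739 to 3351 in mature over DP quiescent, 385 to 931 and 253 to 823 in innate-like over mature, 753 to 1594 and 519 to 1435 in innate-like over DN, 2837 to 3491 and 3050 to 4647 in DP cycling over DP quiescent, and 1016 to 1539 and 1131 to 2151 in DN over DP cycling. Each lowest count of lower genes, and the lowest of higher genes in both innate-like comparisons, came without the p53-/- library; it also gave 1023 higher in DN over DP cycling. Without the p53+/- library, 2551 were lower in mature over DP quiescent, 495 higher and 351 lower in innate-like over mature, 642 lower in innate-like over DN, and 1016 higher and 1486 lower in DN over DP cycling. Median-of-ratios factors moved the median of all genes by 0.22 in DN over DP quiescent and by 0.15 in mature and in DP cycling over DP quiescent. No library can be left out of a ratio between genotypes. Of 288 alternative counts of members past 1.5-fold, 55 moved past 1.5 times the main count, all of them between 0 and 4 members (0, 1, 2, 3 or 4). Sox13 and Cd163l1 had at most 200 UMIs per library.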
